A study of Mus musculus with 2 samples.

Results

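The cytosolic ribosomal protein genes were taken as every gene symbol that starts with Rpl or Rps and a digit, or with Rplp and a digit, together with Rpsa, leaving out symbols marked as pseudogenes and the kinases whose symbols start with Rps6k. This gave 87 of the 27998 genes of the deposited matrices, 34 with small subunit names and 53 with large subunit names. Rpl6l, which the annotation lists as a processed pseudogene but whose symbol carries no such mark, stayed among the 87. The genes were read in jejunal crypt cells of 2 male mice, each 12 months old, labelled strain C57BL6/2J and genotype miR-375 knockout (375KO). According to the study's methods, the knockout covers the whole body and was made by CRISPR/Cas9 in embryos of a mixed FVB and B6 background, followed by backcrossing to B6 albino mice. Each mouse gave 1 droplet library, replicate 1 and replicate 2. Both mice carry the knockout, and no comparison between genotypes was made.

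The cytosolic ribosome is the particle that reads mRNA into protein. Its small subunit (40S) binds the mRNA and decodes it, and its large subunit (60S) joins the amino acids. Each subunit holds a fixed set of proteins around ribosomal RNA, and most of these proteins are needed in equal numbers, so their genes are known for being expressed together. Their mRNAs are short and abundant and typically begin with a stretch of C and T letters, the 5′ terminal oligopyrimidine tract, through which the TOR kinase pathway and the binding protein LARP1 control their translation. Most of these genes have left many processed pseudogenes in the mouse genome, close copies of the mRNA that can take part of its reads. In the crypt, dividing stem and transit-amplifying (TA) cells give rise to absorptive enterocytes and to secretory cells, among them goblet, Paneth, enteroendocrine (EEC) and tuft cells.

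The authors had named 10 cell types among 3275 cells that they kept, 2082 in replicate 1 and 1193 in replicate 2, and no cell barcode occurred in both libraries. Kept cells held a median of 16475 UMIs (unique molecular identifiers, each counting 1 captured RNA molecule) in replicate 1 and 15232 in replicate 2. Mitochondrial UMIs made up a median of 10.2% of a cell's total in replicate 1 and 5.55% in replicate 2. For 44 marker genes, 3 of which stood for more than 1 type, 47 pairs of gene and named type were checked, and in 40 the gene was highest in that type in both libraries. A gene that stands for several types must fail in all but 1 of them. The 7 exceptions were the general TA markers Stmn1 and Pcna, and the secretory genes Atoh1, Spdef, Tff3 and Muc2 for goblet progenitors and Atoh1 for secretory progenitors. Atoh1 thus failed in both of its types, and Spdef in the single type it stands for. None of the markers checked for goblet progenitors was highest in that type in either library. Vim, a mesenchymal and lymphocyte gene, reached 596 and the plasma cell gene Jchain 4117 UMIs per 1000000 UMIs (CPM) in the sum where each was highest, and the fibroblast gene Col1a1 stayed below 1 CPM in all 20 sums.

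Start regions of the genes are shown first, as background to the comparisons of cell types. RefSeq promoter sequences (GRCm38.p6) were matched for 66 members. The window and the run length were chosen after the sequences were seen. A run of at least 8 C or T letters on the transcript's strand lay within 25 bases of the annotated start in 33 of these 66 members (50.0%). Of 27025 genes with such sequences 22.3% had one. Of the members called below as departing from the rest, 3 of 7 had a run (42.9%), and of the other members tested 29 of 56 (51.8%). Whether the runs bear on levels across cell types was not tested. The windows below show the longest such run in capitals for Rps6, Rpl22l1 and Rps27l, which hold a run of that length, and for Rpl12, Rpl36al and Rpl41, which do not. Rps6 and Rpl12 were not called in the fit relative to the ribosomal protein sum, described below, and the others shown were. Rpl12 still had the largest rise of all members from enterocytes to TA cells.
Rps6 (chr4:86857346-86857373, minus strand): tcgggCCTCTTTTTCgtgacgcctccca
Rpl12 (chr2:32961708-32961735, plus strand): atccgTCTTTTCggctttcggctcggag
Rpl22l1 (chr3:28805504-28805531, plus strand): gcccgTTCTCTTCCCacggctgcagctc
Rps27l (chr9:66946059-66946086, plus strand): ctccaCTCCTCTCCactcctccccgccg
Rpl36al (chr12:69184058-69184085, minus strand): tcgcaTTCCCgtcgctcaggttcagttc
Rpl41 (chr10:128549149-128549176, minus strand): gccggCTCggaagtgacgacaccgagca
The capital run is 10 letters long in Rps6 and Rpl22l1, 9 in Rps27l, 7 in Rpl12, 5 in Rpl36al and 3 in Rpl41. The runs of Rps27l and Rpl36al begin at positions -22 and -13 from the annotated start and end before it. A run is only a match of letters, and annotated starts can lie some bases from the true start of transcription.

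Ribosomal protein genes gave 15.2% of all UMIs of the 9 epithelial types in replicate 1 and 22.4% in replicate 2. The share was highest in stem cells and lowest in Paneth cells in both libraries. In stem cells it was 27.7% in replicate 1 (exact Clopper-Pearson 95% interval 27.6 to 27.8) and 36.6% in replicate 2 (36.5 to 36.6), or 32.1% ± 6.27 (SD, n = 2). These intervals cover counting error only, and the gap between the libraries was far wider. Secretory progenitors followed with 24.9% and 33.1%, or 29.0% ± 5.82 (SD, n = 2). TA cells came next with 22.4% and 32.0%, then goblet progenitors with 20.6% and 29.5%, and tuft cells with 19.1% and 23.1%. Among the 9 epithelial types these first 5 places were the same in both libraries.

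Goblet cells (15.7% and 21.4%), EEC (15.5% and 19.5%) and enterocytes (11.5% and 21.6%) were lower and changed places between the libraries. Their means, 18.5% ± 4.04, 17.5% ± 2.84 and 16.6% ± 7.12 (SD, n = 2 each), differed by less than the spread between the libraries. Paneth cells stood apart at 1.82% and 2.66%, or 2.24% ± 0.592 (SD, n = 2). In Paneth cells the 10 most abundant other genes took 82.6% and 81.9% of all UMIs, against 24.2% to 25.7% in goblet cells and at most 17.8% in the remaining types. With these 10 genes taken out of each total, the Paneth share was 10.5% in replicate 1 and 14.7% in replicate 2, still the lowest of all types in both. The intraepithelial lymphocytes (IEL), the only type outside the epithelium, had 21.3% and 31.9%.

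**Figure D1:**
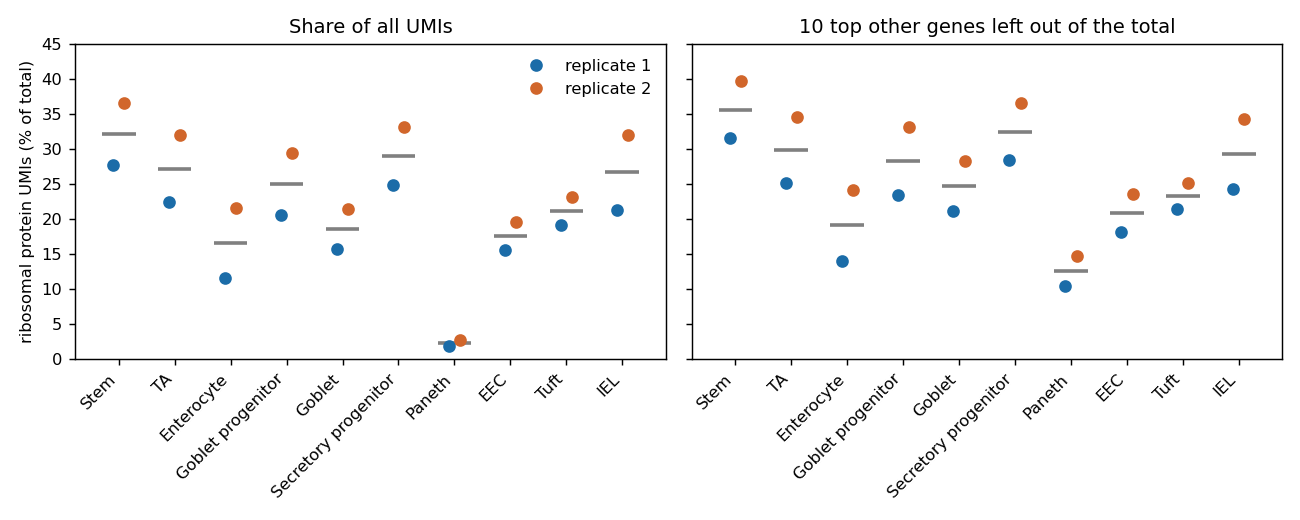
Ribosomal protein UMIs as a percent of the total in each of the 10 named cell types, as 1 point for each library with the mean as a grey bar. The left panel uses all UMIs and the right panel leaves out the 10 most abundant other genes of each sum. Replicate 2 lies above replicate 1 in all 10 types, stem cells are highest (27.7% and 36.6%) and Paneth cells lowest (1.82% and 2.66%).

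Single cells of a type also differed. Among enterocytes of replicate 1 the share of a cell ran from 2.29% at the 10th percentile to 21.1% at the 90th, and in replicate 2 from 5.44% to 32.97%. TA cells spanned a narrower range, from 18.2% to 26.8% in replicate 1 and from 25.3% to 39.5% in replicate 2. Paneth cells ran from 1.15% to 3.38% in replicate 1, with a median of 1.63%. In replicate 2 they ran from 0.961% to 6.72%, with a 75th percentile of 4.88%. Their median there was 1.44%, below the 2.66% of their summed UMIs. Enterocytes of replicate 1 also held the most mitochondrial UMIs, with a median of 13.2% in a cell against 7.59% in replicate 2. Keeping only cells with at least 2500 genes and at most 10% mitochondrial UMIs left 145 of 931 enterocytes in replicate 1, and their share was 19.0%. In replicate 2, 289 of 382 enterocytes remained, with a share of 23.3%. The part of RNA quality in the low enterocyte share of replicate 1 was not tested.

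Small and large subunit genes kept nearly the same balance everywhere. Among the 36 members without a near-copy elsewhere in the annotation, small subunit UMIs divided by large subunit UMIs gave 0.945 to 1.05 in the 10 types of replicate 1 and 0.891 to 0.941 in those of replicate 2. Replicate 2 was lower in all 10 types. A near-copy means here that another gene shares at least 50% of the 40-base stretches in the last 300 bases of the transcript, the end that this kit reads, and 51 members had such a copy. Rpl6 counted as having none, since its own last 300 bases were not shared, although the end of the Rpl6l transcript occurs whole in Rpl6.

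The level of single members covered a wide range. Counts of 3′ tags carry no term for transcript length, so the levels below compare captured molecules. Averaged over the 9 epithelial types and both libraries, the 5 highest members were Rpl41 (5829 CPM), Rpl32 (5535), Rps19 (5091), Rps14 (5026) and Rpl13 (4830). At the lower end, the testis and muscle paralogs Rpl10l (0.14 CPM), Rpl39l (0.06) and Rpl3l (0.01) were next to absent and did not pass the filter on low counts, which left 84 members for testing. Rps12 at 7.01 and Rpl27 at 24.8 CPM were the next lowest, and both have near-copies, 14 for Rps12 and 3 for Rpl27. For Rps12, whose transcript ends in the same sequence as that of Rps12-ps3, the copy held 148 CPM in replicate 1 and 513 in replicate 2, while Rps12 itself held 2.90 and 11.9. Stem cells were the highest type for 75 of 87 members in replicate 1 and 68 in replicate 2, and Paneth cells the lowest for 83 and 84. Over all 11013 genes tested, stem cells were the highest type for 8.76% and 7.70%, and Paneth cells the lowest for 79.0% and 71.1%, so the low Paneth levels were shared by most genes.

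To ask which members differed among the epithelial types, UMIs were summed per mouse and type and fitted with edgeR's quasi-likelihood test, with the mouse as a term and trimmed mean of M values (TMM) scaling. Values are given relative to the bulk of genes by this scaling. The authors had assigned the types by marker expression in these very cells. The tests therefore describe how far the named classes stand apart, and in summed counts fewer cells and less RNA per cell cannot be told apart. Of the 84 members, 81 differed among the 9 types at an adjusted p under 0.05, against 77.3% of all 11013 genes tested. The 3 that did not pass were Rpl27, Rps12 and Rps19bp1, a binding protein of Rps19 that the symbol rule also takes in. Without the mouse as a term, 3 members passed, against 51.7% of all genes, and 7 members had an unadjusted p under 0.05 (edgeR). Differences between the libraries are described further on.

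TA cells were compared with enterocytes as the step from dividing to absorptive cells. Here 24 of 84 members were higher in TA cells and none lower, where 22.6% of all genes were higher. At an unadjusted p under 0.05 the same edgeR test placed 42 higher and 0 lower. The share of all genes at unadjusted thresholds was not counted. DESeq2 called 56 higher and 0 lower, against 21.5% and 24.8% of all genes. The median log2 fold change of the members was 0.34, and that of all genes was -0.059. In both libraries 82 of the 84 members were higher in TA cells, compared with 39.4% of all genes. Small subunit genes had 12 of 34 called and large subunit genes 12 of 50.

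Rpl12, a protein of the large subunit stalk base (chr2:32961559-32965345 in GRCm38), had the largest difference. It held 3811 and 2564 CPM in TA cells of replicates 1 and 2, and 1589 and 1453 CPM in enterocytes, so the groups did not overlap. Its log2 fold change was 0.63 (SE 0.17, adjusted p = 0.0024, edgeR). Rpsa, a small subunit protein that is also known as the laminin receptor, held 4774 and 3331 CPM in TA cells against 2106 and 1998 CPM in enterocytes, again without overlap. It rose by 0.55 on the log2 scale (SE 0.16, adjusted p = 0.0059, edgeR). Rpl14 rose by 0.53 (adjusted p = 0.015) and Rpl36a by 0.51 (adjusted p = 0.027, edgeR).

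Other members that passed were the core proteins Rpl3 (0.48, adjusted p = 0.0498), which lines the peptidyl transferase region, and Rplp2 (0.48, adjusted p = 0.011), an acidic stalk protein, by the same test. Rps6, the substrate of the S6 kinases, had 2613 and 4448 CPM in TA cells and 1305 and 3006 CPM in enterocytes, so it was higher within each library while the groups overlapped. It rose by 0.38 (adjusted p = 0.046, edgeR). The stalk proteins Rplp0 (0.34, adjusted p = 0.078) and Rplp1 (0.37, adjusted p = 0.084) did not pass. The members with negative values were Rpl10 (-0.27, adjusted p = 0.28) and Rps27l (-0.14, adjusted p = 0.49), and neither passed. Under the stricter cell filter described above no member was called by edgeR, where 18.1% of all genes were higher. With it, 7 members had an unadjusted p under 0.05, and the median was 0.15, against 0.035 for all genes. With Paneth cells left out of the fit 63 members were called, all higher in TA cells, where 25.4% of all genes were.

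Stem cells against TA cells gave a shift of like size with few calls. Of the 84 members, 80 were higher in stem cells in both libraries, compared with 31.7% of all genes, and the median log2 fold change was 0.37 against -0.013 for all genes. Only 2 members passed, both higher in stem cells, where 1.90% of all genes were. With an unadjusted p under 0.05 edgeR gave 54 members, without a share of all genes to set beside it. DESeq2 called 21 at its adjusted threshold, all higher in stem cells, where 1.83% of all genes were. The 2 that passed were Rps26, a small subunit protein at the mRNA exit (0.65, SE 0.16, adjusted p = 0.0096), and Rpl15 (0.59, SE 0.16, adjusted p = 0.027, edgeR). Rps26 held 641 and 3430 CPM in stem cells and 394 and 2696 CPM in TA cells of replicates 1 and 2. Rpl15 held 145 and 671 CPM in stem cells against 102 and 505 CPM in TA cells. For both genes the gap between the libraries was wider than that between the types, and stem cells were higher within each library. Both have near-copies and are uncertain for that reason. The lowest values were those of Rps27l (0.049), Rps12 (0.043), Rpl36al (0.029), Rpl7l1 (0.017), Rpl27 (0.016) and Rps19bp1 (-0.028), and these 6 did not pass.

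Among goblet progenitors and goblet cells the members hardly moved. The median log2 fold change was -0.11, against -0.0071 for all genes, and the libraries gave medians of -0.16 and -0.0065. In both libraries 38 of 84 members were lower in the progenitors, compared with 36.5% of all genes. Lower in goblet progenitors by the test were 2 members, against 16.0% of all genes. None were higher, against 13.2% of all genes (edgeR, with 0 higher at an unadjusted p under 0.05 and 0 by DESeq2). Rpl36al, the paralog of Rpl36a, held 1448 and 1596 CPM in goblet progenitors and 1563 and 1618 CPM in goblet cells before TMM scaling. It fell by 0.55 on the TMM scale (SE 0.15, adjusted p = 0.0053). Rpl10, a late-joining large subunit protein, held 19.4 and 63.0 CPM in the progenitors and 21.4 and 81.4 CPM in goblet cells. It fell by 0.73 (SE 0.23, adjusted p = 0.017, edgeR). Scaling by library size alone turned the median to 0.37, with 34 members higher in the progenitors, and the median of all genes to 0.49, so the members stayed close to the bulk of genes under both scalings.

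Paneth cells against goblet cells contrasted the defensin-producing with the mucin-producing secretory cell. Here 13 of 84 members were lower in Paneth cells, against 9.90% of all genes, and 1 was higher, against 8.91%. The median was -0.25 (-0.019 for all genes), and 52 of 84 members were lower in both libraries, compared with 34.1% of all genes. The single member that rose was Rps27l, a paralog of the small subunit protein Rps27 that is known as a target of p53 (chr9:66946086-66949516). It held 269 and 259 CPM in Paneth cells of replicates 1 and 2, and 714 and 1121 CPM in goblet cells. On the TMM scale it rose by 1.07 (SE 0.16, adjusted p = 1.1e-05, edgeR), while by library size alone it fell by 1.73. Rps27 itself had -0.74 (SE 0.32, adjusted p = 0.11) at very low counts, and its transcript end occurs whole in Rps27rt. The difference between these paralogs was not tested.

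The largest fall was that of Rpl22l1, the paralog of Rpl22. It held 48.4 and 136 CPM in Paneth cells and 1183 and 1667 CPM in goblet cells, and fell by 1.18 on the TMM scale (SE 0.23, adjusted p = 0.00087). Rplp1 fell by 0.81 (adjusted p = 0.0014), Rpl3 by 0.81 (adjusted p = 0.0058) and Rpl7 by 0.72 (adjusted p = 0.0015, edgeR). Rpl22 fell by 0.64 (adjusted p = 0.0067) and Rpl39, which lies at the exit tunnel, by 0.51 (adjusted p = 0.029, edgeR). Directions here changed with the scaling. The TMM factors of the Paneth sums were 0.156 and 0.121, against 0.952 to 1.59 in the other sums, and by library size alone all 84 members were lower, with a median of -3.09 against -2.79 for all genes. Under the stricter filter, which left Paneth cells in replicate 2 alone (15 cells), the median was 0.15 against -0.33, and the 6 members called were all higher, as were 2.18% of all genes. That single Paneth sum was assumed to vary like the sums of the other types.

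**Figure D2:**
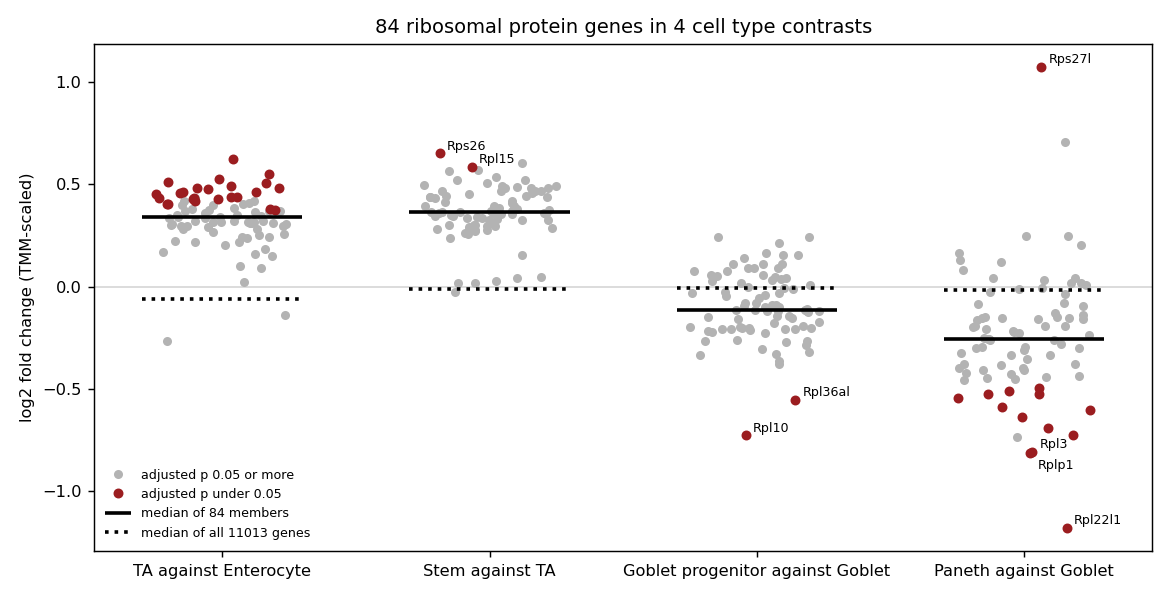
Log2 fold change of each of the 84 tested members in the 4 cell type contrasts, with the members past an adjusted p of 0.05 in red, the members' median as a solid line and the median of all 11013 genes as a dotted line. In TA against Enterocyte and in Stem against TA the members lie together above the median of all genes, and in Paneth against Goblet they spread from -1.18 for Rpl22l1 to 1.07 for Rps27l.

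To see which members departed from the rest, the same fit was run with the summed UMIs of the 36 members without a near-copy in place of the library size. Relative to this sum, 9 of 84 members differed among the 9 types, against 84.4% of all 11013 genes. These members are part of the sum or move with it, so a low share is partly built into the measure. Over the 77 members with at least 50 CPM in both libraries, the highest type exceeded the lowest by a median of 1.33-fold in replicate 1 and 1.30-fold in replicate 2 on this scale. The 9 members were Rps27l, Rpl36al, Rpl10, Rpl41, Rpl22l1, Rps26, Rplp1, Rpl3 and Rps19bp1, and 7 of them have near-copies. DESeq2 called 37 members on this scale, and 82.0% of all genes. Without the mouse as a term edgeR called 1 member, and 43.9% of all genes.

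Rps27l stood furthest apart (adjusted p = 7.9e-09, edgeR). It gave 28.6 and 20.3 UMIs per 1000 ribosomal protein UMIs in Paneth cells of replicates 1 and 2, and 12.9 and 13.1 in enterocytes. Stem cells had 6.24 and 8.44 and secretory progenitors 6.45 and 7.64. In both libraries it was highest in Paneth cells and second in enterocytes. The span from lowest to highest type was 4.95-fold in replicate 1 and 2.66-fold in replicate 2.

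Rpl36al (adjusted p = 0.00011, edgeR) was lowest in stem cells in both libraries, with 8.82 and 8.01 per 1000, and had 20.1 and 16.8 in goblet cells. Its Paneth level differed between the libraries, with 23.2 in replicate 1 and 11.8 in replicate 2. Rpl41, the shortest ribosomal protein (adjusted p = 0.0012, edgeR), was also lowest in stem cells, with 27.5 and 65.2, and highest in Paneth cells, with 59.1 and 104. Rpl22l1 (adjusted p = 0.0029, edgeR) was highest in goblet cells, with 15.2 and 17.3, and low in Paneth cells, with 5.15 and 10.6. Secretory progenitors were low too, with 10.96 and 10.6.

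Rplp1 (adjusted p = 0.019, edgeR) was lowest in Paneth cells in both libraries, with 12.2 and 25.5 per 1000, and in the other epithelial types ran from 17.3 to 20.6 in replicate 1 and from 32.5 to 43.5 in replicate 2. Rps26 (adjusted p = 0.0079, edgeR) was also lowest in Paneth cells, with 3.06 and 12.5. Rpl3 (adjusted p = 0.037, edgeR) was highest in secretory progenitors in both libraries, with 32.9 and 29.3. It was lowest in Paneth cells (15.5) in replicate 1 and in goblet progenitors (19.5) in replicate 2. Rpl10 (adjusted p = 0.00046, edgeR) stayed at or below 1.13 per 1000 in all sums, and Rps19bp1 (adjusted p = 0.048, edgeR) at or below 0.87. The levels of these 2 genes rest on few UMIs, and the end of the Rpl10 transcript occurs whole in a copy.

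**Figure D3:**
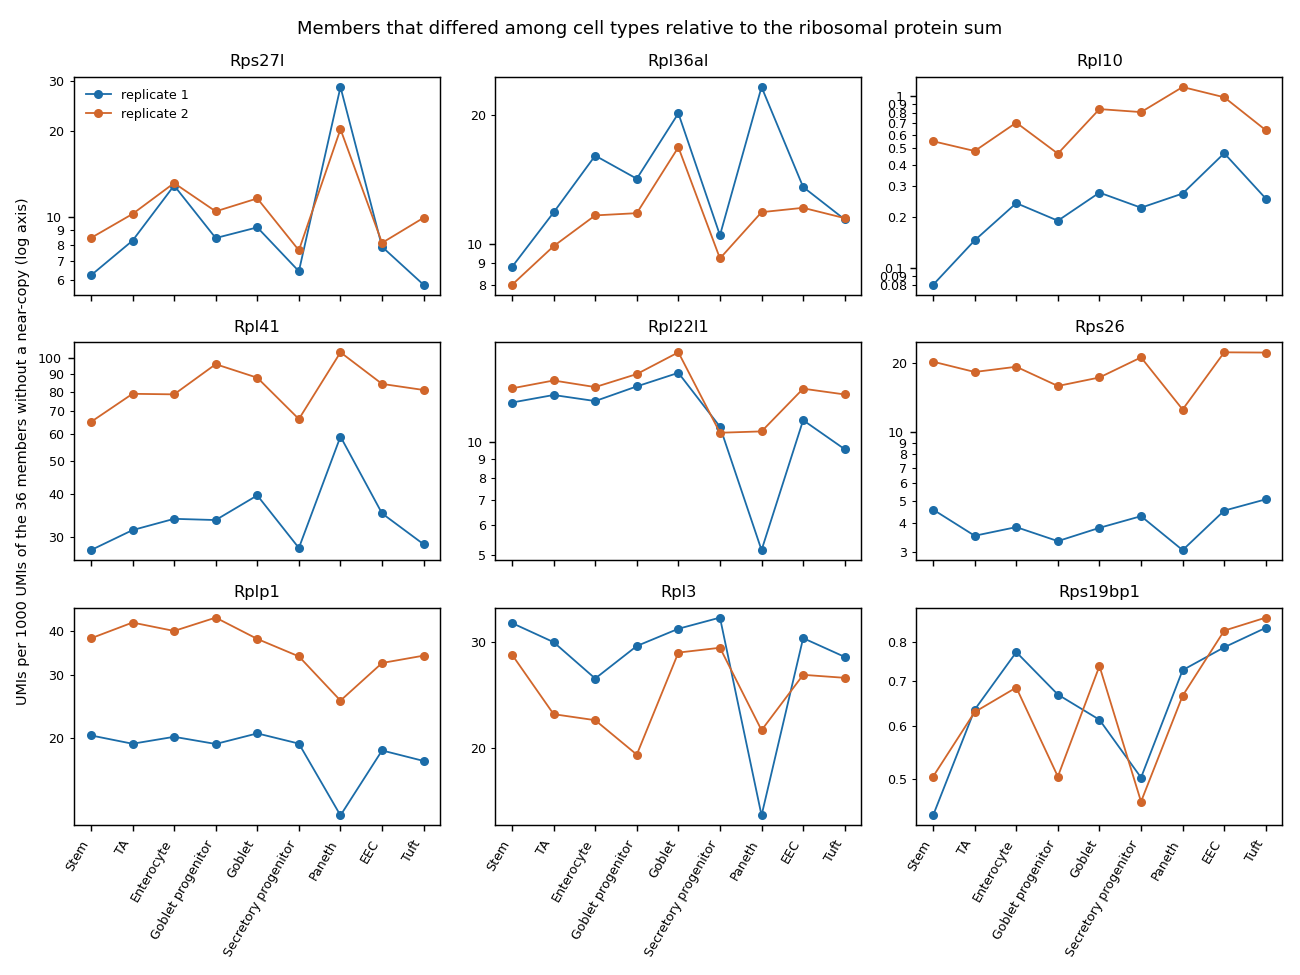
UMIs per 1000 UMIs of the 36 members without a near-copy, on log axes, for the 9 members that differed among the epithelial types on that scale, with 1 line for each library joining the types for ease of reading only. Rps27l peaks in Paneth cells in both libraries (28.6 and 20.3), whereas Rpl22l1, Rps26 and Rplp1 are low there.

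Other components of translation were looked at beside the members. Rack1, listed under its older symbol Gnb2l1 and a scaffold protein of the small subunit, had 0.32 in TA against Enterocyte (adjusted p = 0.15) and 0.44 in Stem against TA (adjusted p = 0.19, edgeR). Fau, which encodes a small subunit protein fused to a ubiquitin-like protein, went the other way in TA cells and fell by 0.76 (SE 0.24, adjusted p = 0.0090, edgeR). It held only 6.87 and 28.3 CPM in TA cells against 10.2 and 32.5 in enterocytes. A list of 27 genes of translation factors and related proteins had 10 higher and 1 lower in TA cells than in enterocytes, with a median of 0.11, where 22.6% of all genes were higher and 29.1% lower. Among the 10 were Npm1 (1.36), a nucleolar chaperone, and Nap1l1 (3.77), a nucleosome assembly protein, which are no translation factors. Without this pair, which was set aside after the values were seen, 8 of 25 were higher and 1 lower.

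Of 12 genes tested from a list for export and maturation of the large subunit, 6 were higher and 1 lower in TA cells, with a median of 0.49. This list also holds Rpl7l1, a member by its symbol, and Eif6, which is in the translation list too. The nucleolar proteins Ncl (1.63, adjusted p = 8.7e-07) and Fbl (1.30, adjusted p = 7.2e-07) rose, and Eif6, which keeps the subunits apart until the large subunit is mature, fell by 0.63 (adjusted p = 0.0019, edgeR). Of 12 genes of the TOR and S6 kinase list 4 were higher in TA cells and 1 lower, with a median of 0.0069. Larp1 rose by 0.79 (adjusted p = 0.00035) and Eif4ebp1, a TOR-regulated repressor of translation initiation, by 0.66 (adjusted p = 0.0035, edgeR). Of 76 mitochondrial ribosomal protein genes 7 were higher and 5 lower, with a median of 0.18. In TA against Enterocyte, the contrast of all these counts, 22.6% of all genes were higher and 29.1% lower. In Stem against TA, 3 translation factor genes were higher (Eif3e, Eif3f and Eef1g) and 1 mitochondrial ribosomal protein gene was lower, where 1.90% of all genes were higher and 2.93% lower.

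The lists differed again in secretory cells. For Paneth against goblet cells 4 of 27 genes of the translation list were higher (Nap1l1, Eif4g2, Eif5 and Pabpc1) and 6 lower, against 8.91% and 9.90% of all genes. By library size alone Eif4g2, Eif5 and Pabpc1 were lower in Paneth cells, with values from -2.26 (Pabpc1) to -1.77 (Eif4g2). Eif4ebp1 was the only gene of the TOR list to pass. It held 46.9 and 31.4 CPM in Paneth cells and 108 and 81.8 CPM in goblet cells, rose by 1.51 on the TMM scale (adjusted p = 9.2e-07, edgeR), and by library size alone fell by 1.30. From the maturation list 1 gene passed, Eif6, which fell by 1.18 (adjusted p = 5.1e-05, edgeR). Of the mitochondrial ribosomal protein genes 14 of 76 were lower, with a median of -0.43. Between goblet progenitors and goblet cells 6 of 27 genes of the translation list were lower in the progenitors and 1, Nap1l1, higher, where 16.0% and 13.2% of all genes were.

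The 2 libraries differed in the ribosomal protein genes, most of which were higher in replicate 2, unlike most genes of at least 50 CPM. With 1 library per mouse this difference has no replicate check and no test. The labels name the same kit for both libraries. The matrices held 7665 barcodes in replicate 1 and 1251 in replicate 2, and none occurred in both. The reason was not tested. Whether kit, counting settings and reference were in fact alike was not tested either, which bears on every ratio between the libraries. Of the 81 members with at least 50 CPM in either library, 64 were higher in replicate 2 over all epithelial cells, compared with 25.9% of all 2644 genes at that level. The median ratio of replicate 2 to replicate 1 was 1.51 for members and 0.783 for all genes. Members were listed when they differed 2-fold or more, one way, in 5 or more of the 9 types. This gave 23 of the 81 members (28.4%), all higher in replicate 2, where 3.29% of all genes were.

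Rps18, a small subunit head protein (chr17:33951999-33956001, minus strand), was the extreme. It held 68.5 CPM in replicate 1 and 4782 CPM in replicate 2, a ratio of 69.8, and was more than 2-fold higher in replicate 2 in all 9 types. Rps28 (chr17:33819027-33824562, minus strand) held 153 and 1907 CPM, a ratio of 12.4. Next came Rps27rt (24.5 and 285 CPM, 11.7-fold), Rpl6l (33.7 and 229, 6.80-fold), Rps26 (285 and 1897, 6.66-fold), Rpl15 (69.4 and 373, 5.38-fold) and Rps29 (694 and 3563, 5.14-fold). Rpl10, Rpl31, Rpl23a, Rps2 and Rpl41 had ratios from 4.11 down to 3.27. No member was listed in the other direction, for which no share of all genes is given. The lowest ratios were those of Rpl30 and Rps10, each 0.624, Rpl12 (0.690) and Rpl7l1 (0.697).

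The listed genes were mostly genes with near-copies. Of the 33 expressed members without a near-copy 3 were listed (9.09%), namely Rpl37a, Rpl37 and Rpl6. Rpl6 is in this group only by the definition above, since the end of Rpl6l, which has a row, occurs whole in it. Where a near-copy lay in the annotation but had no row in the matrices, 6 of 30 were listed, and where it had a row, 14 of 18 (77.8%). The summed level of these 18 rose from 13352 CPM in replicate 1 to 39100 CPM in replicate 2, a ratio of 2.93, against 1.36 for members without a near-copy. The ratio also went with transcript length, which is mixed up with near-copies here. Over the 33 members without a near-copy Spearman's rho between annotated length and the ratio was -0.44, and over all 81 it was -0.40, as a description across genes that share both libraries. Over all 81, the 17 transcripts under 500 bases had a median ratio of 2.47 and the 18 of at least 1000 bases 1.05. Of these, 14 short and 3 long ones have a near-copy, with medians of 2.71 and 0.893. The 3 short and 15 long ones without a near-copy had medians of 1.42 and 1.13. Length and near-copy were not tested apart.

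Gene and copy are shown for Rps18 and Rps26, since a read from this part of the transcript can be told apart by single letters only. The Rps18 transcript and its processed pseudogene Rps18-ps3 on chromosome 8 were aligned without gaps over 456 bases, of which 453 were identical. Rps26 and Rps26-ps1, also on chromosome 8, had 425 of 429 identical. Capitals mark the letters that differ in these windows of 30 bases.
Rps18: ctggccgcaggggcCgaactgtgggtgtat
Rps18-ps3: ctggccgcaggggcTgaactgtgggtgtat
Rps26: ggacGgaaggaaaaTtaccctggaaaaata
Rps26-ps1: ggacAgaaggaaaaCtaccctggaaaaata
Counted from 1 at the 5′ end of the window, the pseudogene differs from the gene by C15T for Rps18, and by G5A and T15C for Rps26.

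Adding the copies narrowed the difference for Rps18 but did not remove it. Rps18-ps3 held 183 CPM in replicate 1 and 58.2 in replicate 2. Gm10260 on chromosome 13, which shares 46.0% of the stretches and so lies just under the limit for a near-copy, held 702 CPM in replicate 1 and 12.8 in replicate 2, more than Rps18 itself in the former. Rps18 and both copies together had 954 and 4853 CPM, a ratio of 5.09 in place of 69.8. The Rps18 row taken alone is therefore uncertain. For Rps28 and its copy Gm10263 together the ratio was 12.0, for Rps26 and Rps26-ps1 6.21, and for Rpl15 and Gm10020 4.47. Among the other copies with a row, Rpl23a-ps3 rose from 16.1 to 375 CPM. Wdr89, listed as a protein-coding gene that shares 84.7% of the Rplp2 stretches, rose from 17.8 to 363 CPM. How reads that match several places were treated in each library was not tested, and mouse, library and depth cannot be told apart.

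**Figure D4:**
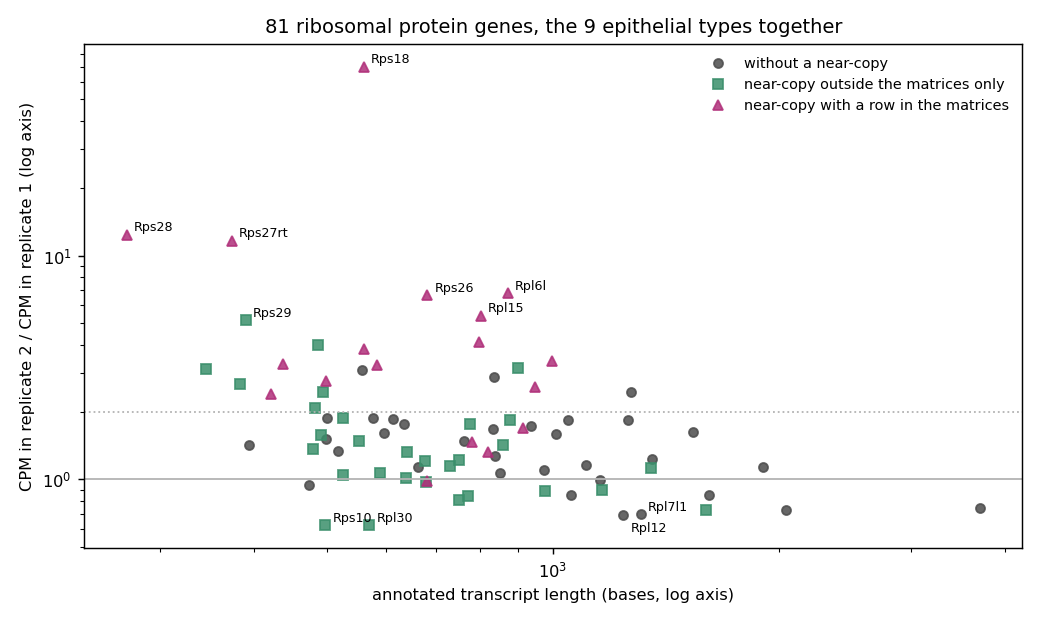
CPM in replicate 2 divided by CPM in replicate 1 for the 81 members with at least 50 CPM in either library, against annotated transcript length, both on log axes. Triangles are members whose near-copy has a row in the matrices, squares members whose near-copy does not, and circles members without a near-copy. The solid line is a ratio of 1 and the dotted line 2. Rps18 lies highest at 69.8, and short transcripts and triangles lie above long ones.

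Since cell types were compared within each library, these gaps enter the type contrasts only through the mouse term and the spread. Rps18 had a log2 fold change of 0.40 in TA against Enterocyte (0.53 and 0.29 in the libraries, adjusted p = 0.059) and of 0.57 in Stem against TA (0.73 and 0.40, adjusted p = 0.065, edgeR), and neither passed. Rps28 had 0.34 (adjusted p = 0.12) and 0.47 (adjusted p = 0.17, edgeR) in the same contrasts. Members with and without a near-copy had medians of 0.34 and 0.36 in TA against Enterocyte, and of 0.35 and 0.37 in Stem against TA. In Paneth against Goblet their medians were -0.30 and -0.17.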

How the data were processed

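Jejunal crypt cells of 2 mice, 1 library each, were profiled with a 10x Genomics 3′ kit (v2 chemistry per the labels). The authors aligned reads to mm10, counted with Cell Ranger 3.0.1 and worked in Seurat 3.2.1 per the submitters' processing notes. They state that SoupX removed free RNA and that doublets were called and removed with scDblFinder, but not whether the deposited matrices are those after SoupX. The deposited matrices hold UMI counts, and the authors' table of cells gives the mitochondrial percent of UMIs and the cell type. The authors kept cells with at least 1500 genes and at most 25% mitochondrial reads. Another 2937 cell columns per table, of another series, were not used. The rows of the cell table were matched by order to the columns of the study-wide count table, and UMI and gene totals were identical in 3275 of 3275 cells. Totals in the per-library matrices, read by barcode, differed from these by at most 262 UMIs in a cell.

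UMIs were summed per mouse and type (18 epithelial sums, at least 10 cells each) and fitted with edgeR 4.0.16 (filterByExpr, TMM, robust glmQLFit and glmQLFTest, terms type and mouse, Benjamini-Hochberg adjustment over all 11013 genes). The replicate number pairs the sums because those of a library come from the same animal. SE is the size of the log2 fold change divided by the square root of F. Fold changes within a library used a prior count of 2. The code was tested on simulated data. DESeq2 1.42.0, other scalings, filters and cell choices were alternatives. Epithelial sums rest on 43754640 and 21937931 UMIs in replicates 1 and 2. Near-copies were found in GENCODE M21 transcripts (GRCm38), with 40-base stretches of the last 300 bases, and transcript length is that of the shortest transcript used. Shares, with n = 2, were described without a test.

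Named genes were, in each contrast, up to 4 highest and 4 lowest called members with the same direction in both libraries, listed paralogs and core members, the 6 members with the lowest p on the relative scale, the 12 largest ratios between libraries, the 5 highest and 5 lowest members, and Fau and Rack1. Another gene of that rule is not reported here. Called members beyond these, and genes of the other lists, were named after their values were seen. Members, lists and rule were chosen with earlier results of these data known. The sctransform table and the doublet calls were not used here.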

Additional observations from a re-analysis of the deposited data

Results flagged for a closer look

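Barcodes that the authors did not keep lay outside all comparisons and held ribosomal protein UMIs, as any barcode with captured RNA would. In replicate 1 the 5583 such barcodes had a ribosomal protein share of 8.11% (1644470 UMIs), and in replicate 2 the 58 such barcodes had 10.8% (162778 UMIs). Mitochondrial UMIs made up 32.9% and 2.18% of these barcodes' UMIs. With 2 libraries no group was large enough for a check of single outlying samples.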

How the results depend on the processing

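For the omnibus test the count of 81 members stayed between 79 and 84 in all alternatives but the one with no replicate block (3). There the mouse term was dropped, and 51.7% of all genes passed, against 53.8% to 99.5% in the other alternatives. With no replicate block edgeR called 0 members in all 4 contrasts (0, 0, 0 and 3 at an unadjusted p under 0.05 for TA against Enterocyte, Stem against TA, Goblet progenitor against Goblet and Paneth against Goblet) and 1 on the relative scale. Of all genes, 25.8%, 0.636%, 9.48% and 7.64% were called in these contrasts, in that order, and 43.9% on the relative scale.

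For TA against Enterocyte the main 24 became 56 by DESeq2, 82 by library size alone and 71 with cells thinned to 5000 UMIs, all higher. In these fits 21.5%, 37.5% and 22.4% of all genes were higher. The count became 63 without Paneth cells, 8 with no filter and 0 under the stricter cell filter, where 25.4%, 16.7% and 18.1% of all genes were higher. Scaled to ribosomal protein UMIs it became 2, both lower, where 41.1% of all genes were. The median was 0.73, 0.53 and 0.15 by library size, thinning and the stricter filter, and -0.016 when scaled to ribosomal protein UMIs. That last scaling divides by UMIs of the members themselves. Small medians and low counts of members are therefore partly built into it in every contrast, and they are no check on the members' shift. On that scale the median of all genes was -0.43 in TA against Enterocyte. For Stem against TA the main 2 became 21 by DESeq2, 10 thinned and 23 under the stricter filter, all higher. Of all genes 1.83%, 1.92% and 1.77% were higher there. The count became 27 without Paneth cells and 1 with IEL, all higher, where 2.76% and 1.39% of all genes were. It became 0 by library size, with no filter and when scaled to ribosomal protein UMIs (13, 4 and 0 at an unadjusted p under 0.05 in edgeR). In those fits 1.20%, 1.20% and 0.735% of all genes were higher. The median was 0.24 both by library size and with no filter, and -0.024 when scaled to ribosomal protein UMIs.

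For Goblet progenitor against Goblet the main 2 became 34, all higher, by library size (median 0.37), where 33.4% of all genes were. The count became 6, all lower, under the stricter filter and without Paneth cells, where 15.9% and 17.4% of all genes were. With no filter, thinned and scaled to ribosomal protein UMIs it became 1, which was lower, as were 8.74%, 11.7% and 11.6% of all genes. Rpl14 and Rps18 turned to 0.48 and 0.49 by library size. For Paneth against Goblet the main 14 became 84, all lower, by library size (median -3.09), where 85.6% of all genes were. Thinned, the median was -0.78, against -0.74 for all genes. The count became 60, all lower, where 8.20% of all genes were. It became 8 with no filter and 6 scaled to ribosomal protein UMIs, where 13.2% and 16.1% of all genes were called. The stricter filter, with a single Paneth sum, gave a median of 0.15. Library size alone turned Rpl12 (-2.80), Rpl15 (-2.86), Rpl10 (-2.65), Rps27l (-1.73), Rpl41 (-2.57), Rps12 (-2.71), Rpl27 (-2.24), Rps14 (-2.80) and Rpl32 (-2.63). The stricter filter turned Rpl36a (0.53), Rps26 (0.013), Rpl3 (0.017), Rpl22 (0.17), Rpl39 (0.038), Rplp2 (0.091) and Rps19 (0.57). On the relative scale the main 9 became 37 by DESeq2 and 5 with no filter, where 82.0% and 57.8% of all genes were called. Their causes were not tested. The members' median minus that of all genes was 0.40 in TA against Enterocyte by TMM and 0.38 by library size, and -0.23 and -0.30 in Paneth against Goblet. With cells thinned this difference was 0.53 in TA against Enterocyte and -0.045 in Paneth against Goblet. Under the stricter filter it was 0.12 in TA against Enterocyte. In Paneth against Goblet, with a single Paneth sum, it turned to 0.49 under that filter.

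Leaving out the members with a near-copy brought the mean share to 15.4% in Stem, 13.0% in TA, 7.82% in Enterocyte, 11.9% in Goblet progenitor, 8.71% in Goblet, 13.98% in Secretory progenitor, 1.11% in Paneth, 8.26% in EEC, 10.1% in Tuft and 12.8% in IEL. Without the 10 top genes the means were 24.7% in Goblet, 12.6% in Paneth and 20.8% in EEC, and the stricter filter gave 5.73% in Paneth. The 23 members listed between the libraries became 42 at 1.5-fold. The stricter filter left under 10 Paneth and IEL cells in replicate 1, so those sums were left out.

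Leaving out a mouse left no spread to test against, so counts of calls could not be had. The median in the remaining library ran from 0.26 to 0.44 in TA against Enterocyte, 0.32 to 0.41 in Stem against TA, -0.16 to -0.0065 in Goblet progenitor against Goblet and -0.45 to -0.12 in Paneth against Goblet.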
